A study of Arvicanthis niloticus with 5 samples.

Results

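The genes of potassium channel subunits were examined in RNA of the Nile rat eye (Arvicanthis niloticus, a day-active African rodent). Members were the genes whose symbol begins with KCN followed by a letter, taken from the deposited ortholog names in the order mouse, rat, human. This gave 58 of 13982 named genes, carried by 64 transcripts. They were divided by symbol into voltage-gated (24 genes), inward rectifier (12), two-pore (8) and calcium-activated (1) pore-forming subunits, and 13 accessory subunits that bind a pore without forming one. The labels list 5 samples, all of wild-type genotype and eye tissue, with strain given as WT and no age or treatment. They form 1 group, and the labels' protocol describes a library pooled from RNA of 5 rats. The deposited table holds 1 column of values for the series. Whether that column adds up the 5 labelled samples or holds 1 library is not stated, and it was treated as 1 pool. Every value below therefore has no replicate error, the design holds no comparison between conditions, and the brackets give 95% intervals for counting error alone.

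Potassium channels set the resting potential of a cell and bring it back after depolarization. Voltage-gated channels open on depolarization, inward rectifiers pass current most easily at negative potentials, two-pore channels carry leak current, and calcium-activated channels open as calcium rises inside the cell. In the eye they shape the light response of photoreceptors, carry potassium away from active neurons through Müller glia, and balance potassium across the retinal pigment epithelium.

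Levels are in FPKM, a count of sequenced fragments scaled by transcript length and by the mapped total, added up over the transcripts that carry a gene's symbol, so they are per length throughout. The table rests on 64967222 mapped fragments, at which a count of 0 on a transcript of 1000 nt allows up to 3 fragments or 0.0462 FPKM. Markers of the labelled tissue were present, with 4 of 4 lens markers at 194 to 931 FPKM, 4 of 4 photoreceptor markers at 47.5 to 332 FPKM and 3 of 3 measured pigment epithelium markers at 102 to 238 FPKM. Müller glia markers (4 of 4) lay at 14.6 to 432 FPKM and bipolar cell markers (3 of 3 measured) at 3.61 to 12.6 FPKM. Markers of skeletal muscle, myelin and Schwann cells were present as well, with 4 of 4 muscle genes at 28.6 to 174 FPKM and 4 of 4 of the others at 10.1 to 118 FPKM. In a pool of whole tissue, fewer cells of a type and less RNA per cell cannot be told apart, and the cells behind a subunit's level were not tested.

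Potassium channel subunits were mostly at low levels. The median member stood at 3.50 FPKM, against 6.50 FPKM for all named genes, and 15 of the 58 members lay above that median of all genes. At least 1 FPKM was reached by 56 of 58 members, where 93.2% of all named genes did so, which sets the members close to the background. At 5 FPKM the count was 21 of 58 against 59.8% of named genes, and at 10 FPKM it was 8 of 58 against 34.0%. The 8 genes above 10 FPKM included Kcnj14, Kcnip4, Kcne2, Kcnab1, Kcnv2, Kcnj13 and Kcnc1. The 5 highest held 44.7% of the summed level of all members, 424 FPKM. The 2 members under 1 FPKM were Kcnh8 (0.404 FPKM on 13 fragments) and Kcnmb1 (0.847 FPKM on 33 fragments). These rested on short transcripts, of 495 nt for Kcnh8 and 600 nt for Kcnmb1. Over all members the median of the longest transcript per gene was 2646 nt, against 2282 nt over all named genes. By group it was 1698 nt for accessory and 1888 nt for two-pore genes, and above 2282 nt for the other groups.

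**Figure D1:**
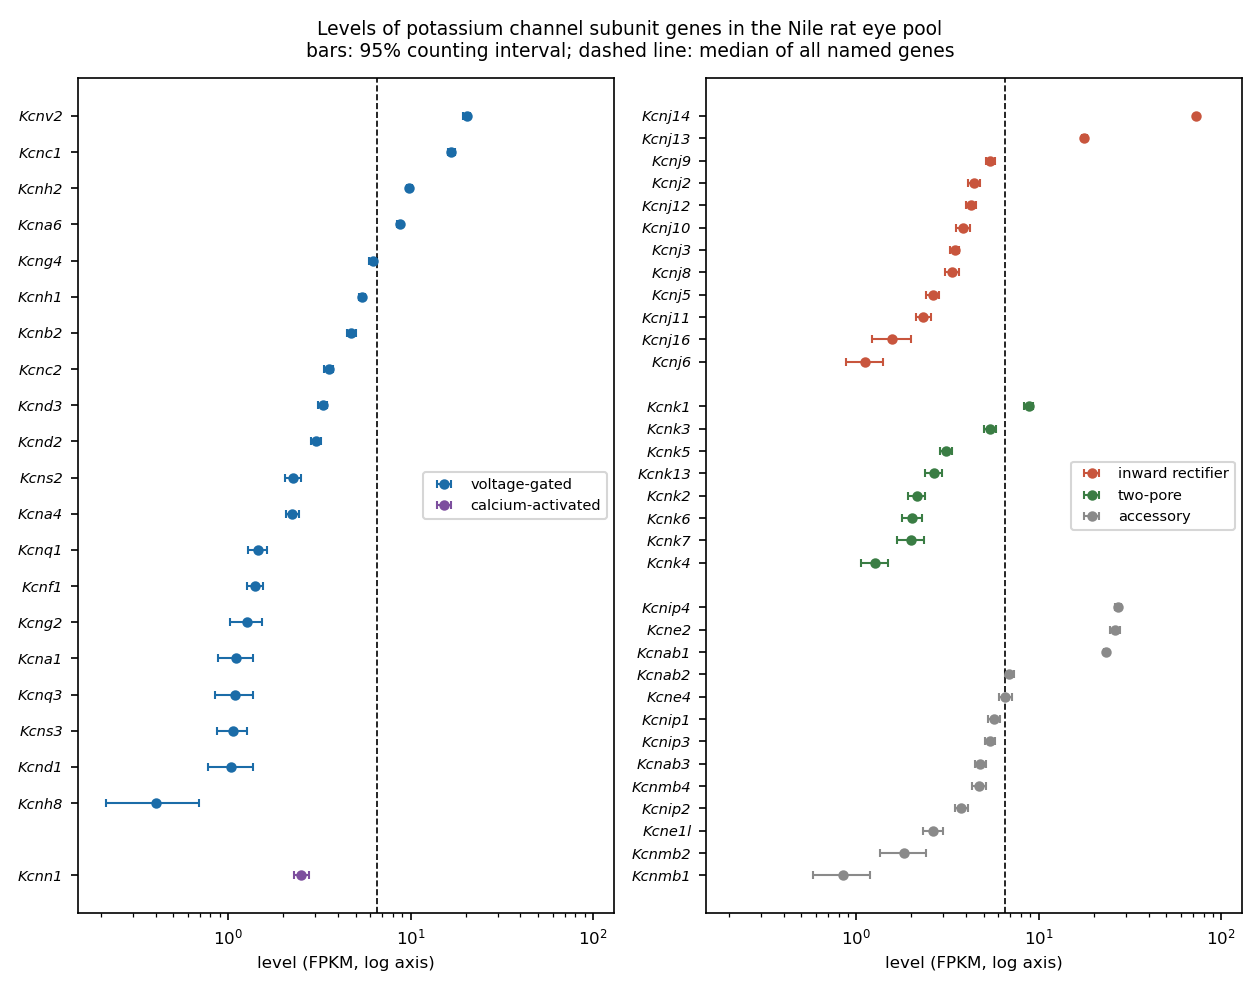
Level of 54 of the 58 subunit genes in FPKM (log axis), ordered within its group, with 95% counting intervals as bars and the median of all named genes (6.50 FPKM) as a dashed line. Kcnj14 at 72.9 FPKM stands apart from the other inward rectifiers, and most genes of each group lie left of the line.

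**Figure D2:**
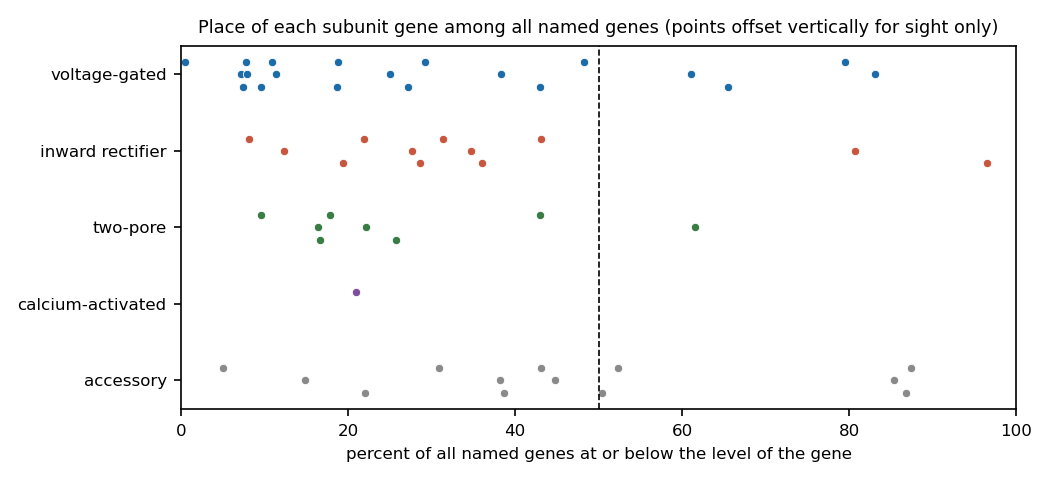
Place of 54 subunit genes among all 13982 named genes, as the percent of named genes at or below its level. Kcnj14 is at 96.5% and Kcnip4 at 87.4%, while Kcnh8 is at 0.401%, and the dashed line marks the middle of the named genes.

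Among the 4 pore-forming groups, the voltage-gated genes had the highest summed level, 151 FPKM [149 to 153] over 24 genes. The inward rectifiers followed with 123 FPKM [122 to 125] over 12 genes. The two-pore channels summed to 27.4 FPKM [26.5 to 28.4] over 8 genes, and the calcium-activated group to 2.52 FPKM [2.29 to 2.76] on Kcnn1 alone. With the human symbol taken first, transcripts named KCNN2 and KCNT1 joined this group and its sum was 6.18 FPKM. The group was set by symbol and also takes the Kcnt and Kcnu genes, as relatives. KCNT1 is activated by sodium, so that sum is not of calcium-activated channels alone. Accessory subunits summed to 120 FPKM [117 to 122] over 13 genes. Together the 45 pore-forming genes held 71.7% of the members' summed level.

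The sum of the voltage-gated genes was 1.22-fold [1.20 to 1.25] that of the inward rectifiers, a log2 ratio of 0.29 [0.27 to 0.32]. The medians were in the opposite order, 3.16 FPKM for voltage-gated and 3.65 FPKM for inward rectifier genes, so the direction depended on the summary used. The ratio of sums also rested on single genes. It was 1.59 on the log2 scale without Kcnj14, which alone held 59.2% of the inward rectifier sum. It was 0.042 when a transcript had to carry the same name in at least 2 species, which left out Kcnv2, Kcna6, Kcnj2 and Kcnj12 among others. Both of these settings were chosen after the data were seen. A planned setting, which left out the highest gene of every group, gave 1.15.

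The other ratios were larger. Voltage-gated genes were 5.50-fold [5.31 to 5.70] above two-pore genes, and inward rectifiers 4.49-fold [4.33 to 4.66]. Without Kcnj14 the inward rectifiers stood 0.87 above the two-pore genes on the log2 scale, against 2.17 with it. Without the highest gene of every group this was 1.43. The median two-pore gene was at 2.40 FPKM, against the medians of 3.16 and 3.65 FPKM given above. Ratios to the calcium-activated group compare a whole group with 1 gene: the log2 ratio was 5.90 [5.77 to 6.04] for voltage-gated, 5.61 [5.48 to 5.74] for inward rectifier and 3.44 [3.30 to 3.58] for two-pore genes. With the human symbol first, and KCNT1 in the group, these were 4.61, 4.32 and 2.15. Kcnma1, the pore of the large-conductance BK channel, carried no symbol on any transcript and was not analysed here, so these ratios were not read as a low level of calcium-activated channels in the eye.

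**Figure D3:**
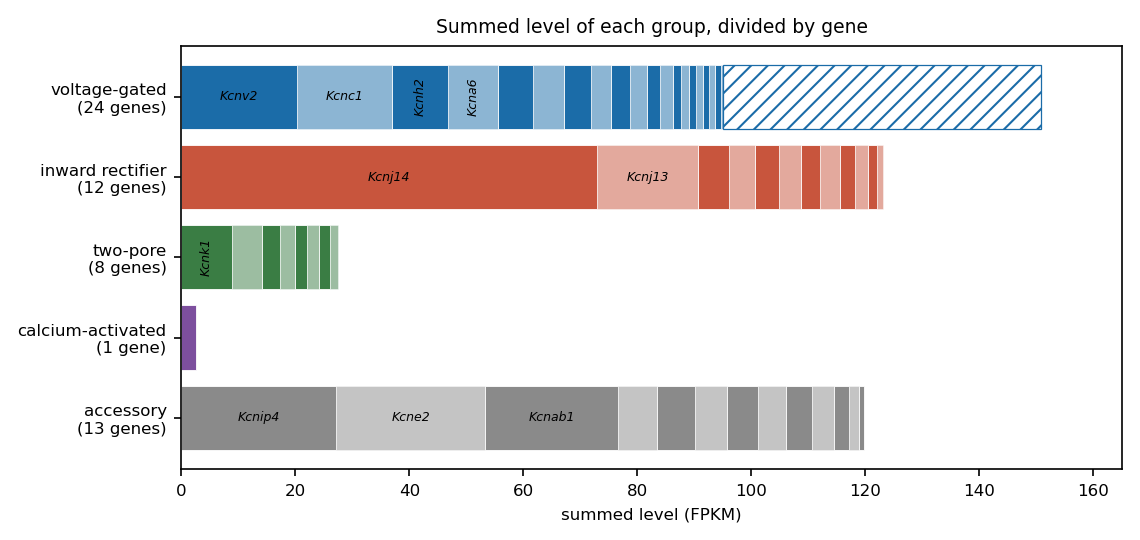
Summed level of each group in FPKM, with each segment 1 gene, the larger ones written in, and the hatched segment the genes not drawn singly. The inward rectifier bar is mostly Kcnj14, while the voltage-gated bar of 151 FPKM is divided among many genes.

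**Figure D4:**
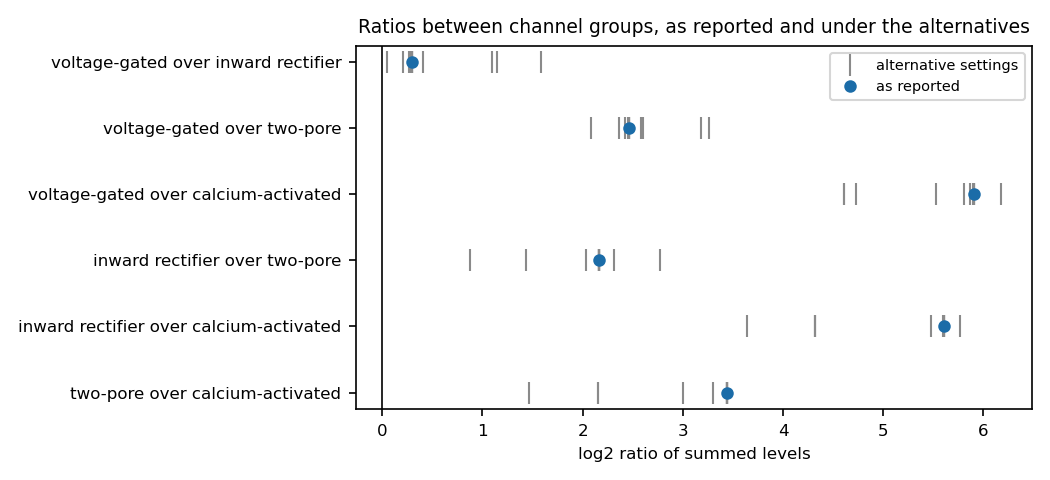
Log2 ratio of summed levels for the 6 pairs of pore-forming groups, as reported (points) and under the alternative settings (ticks). All lie above 0, with the ratio of voltage-gated to inward rectifier genes running from 0.042 to 1.59.

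Among voltage-gated genes, Kcnv2 was abundant at 20.3 FPKM [19.3 to 21.3] on 1725 fragments. Kcnv2 encodes Kv8.2, a subunit that forms no channel alone, joins Kv2 subunits in photoreceptors, and is mutated in cone dystrophy with supernormal rod response. Its single transcript, of 1309 nt, was named in mouse only. Kcnb2 (Kv2.2), a delayed rectifier pore of neurons, was lower at 4.74 FPKM [4.49 to 5.00] on 1385 fragments.

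Kcnc1 encodes Kv3.1, a pore that lets neurons fire fast. It summed to 16.7 FPKM [15.97 to 17.4] on 2109 fragments over 2 transcripts, 1 of 1728 nt at 13.2 FPKM and 1 of 2779 nt at 3.45 FPKM. If both are pieces of 1 mRNA, the sum is too high, and a length-weighted mean gave 7.20 FPKM. Kcnc2 (Kv3.2), of the same family, stood at 3.55 FPKM [3.37 to 3.75] on 1352 fragments. Kcnc1 was 4.70-fold [4.38 to 5.03] above Kcnc2 as a sum, a log2 ratio of 2.23 that was 1.02 with the length-weighted mean. Kcnv2 was 1.22-fold [1.14 to 1.30] above Kcnc1, and the log2 ratio of 0.28 was 1.49 with that mean.

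Of the measured genes of the ether-a-go-go family, named for a fly mutant whose legs shake, Kcnh2 was highest at 9.84 FPKM. It encodes Kv11.1, the channel that repolarizes the heart. Kcnh1 (Kv10.1) stood at 5.40 FPKM. Kcnh8 (Kv12.1) was the lowest member of the whole set, at 0.404 FPKM [0.215 to 0.691] on a transcript of 495 nt. Levels of the measured genes thus ran from the upper to the lowest part of the voltage-gated order. Kcnh3, Kcnh4, Kcnh5, Kcnh6 and Kcnh7 of this family were not measured.

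The Kv1 genes, whose channels open near the resting potential and sit on axons, were uneven. Kcna6 was at 8.70 FPKM, Kcna4 at 2.25 FPKM and Kcna1 at 1.10 FPKM [0.882 to 1.36] on 86 fragments. Kcna6 was named in human only and Kcna1 in mouse only. The Kv7 genes, which include the slow M-current pores of neurons, held 4 measured genes with a sum of 11.9 FPKM [11.4 to 12.4]. Kcnq1 stood at 1.45 FPKM [1.28 to 1.64] on 253 fragments and Kcnq3 at 1.09 FPKM. Kcnq1, a pore of heart and epithelia, could not be set against its partner Kcne1, which was not measured.

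The Kv4 genes, pores of the fast inactivating A-current, were all under the median of named genes. Kcnd3 was at 3.29 FPKM [3.13 to 3.46], Kcnd2 at 3.02 FPKM [2.84 to 3.22] on 994 fragments and Kcnd1, named in human only, at 1.04 FPKM. The intervals of Kcnd3 and Kcnd2 overlap and no ratio was computed between them, so no order was read, while Kcnd1 lay below both.

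The silent subunits, which form no channel alone and modify Kv2 pores, held 6 measured genes with a sum of 32.5 FPKM [31.4 to 33.6]. Kcnv2 supplied 62.4% of it. Kcng4 (Kv6.4) followed at 6.20 FPKM, and Kcns2 (2.27 FPKM), Kcnf1 (1.41 FPKM), Kcng2 (1.26 FPKM) and Kcns3 (1.06 FPKM) were low. At the bottom of the voltage-gated order, the intervals of neighbouring genes from Kcnq1 down to Kcnd1 overlapped, so no order was read there.

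Kcnj14 was the highest of all 58 members. It encodes Kir2.4, a strong inward rectifier, and stood at 72.9 FPKM [71.7 to 74.2] on 13711 fragments of a single transcript of 2894 nt that mouse, rat and human names agreed on. It was 16.5-fold [15.2 to 17.8] above Kcnj2 (Kir2.1), which stood at 4.43 FPKM [4.104 to 4.78] on 673 fragments, and Kcnj12 (Kir2.2) was at 4.25 FPKM. The 3 measured Kir2 genes summed to 81.6 FPKM, of which Kcnj14 held 89.4%. Kcnj4, also of this class, was not measured. The fragment count of Kcnj14 was fractional, so part of it was shared with another transcript. In the RefSeq annotation of the species (assembly mArvNil1.pat.X), Kcnj14 overlaps a long non-coding RNA, LOC143442373. No source used here says whether counting was by strand, so reads of that RNA and of Kcnj14 cannot be told apart.

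Kcnj13 was the second inward rectifier, at 17.8 FPKM [17.3 to 18.3] on 4827 fragments. It encodes Kir7.1, the potassium channel of the apical membrane of the retinal pigment epithelium, and is mutated in snowflake vitreoretinal degeneration. The pigment epithelium genes Rpe65, Rgr and Ttr were at 238, 128 and 102 FPKM. Kcnj13 lies within the locus of the protein-coding gene Gigyf2 in the RefSeq annotation.

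Kcnj10 and Kcnj16 encode Kir4.1 and Kir5.1, which pair in glia and epithelia, and Kir4.1 is the main potassium conductance of Müller glia. Kcnj10 stood at 3.84 FPKM [3.52 to 4.19] on 522 fragments, sixth of the 12 inward rectifiers. Kcnj16 was at 1.57 FPKM [1.22 to 2.0], the sum of transcripts of 520 and 876 nt with 24 and 49 fragments, and 0.861 FPKM with the highest transcript alone. Kcnj10 was therefore 2.45-fold [1.90 to 3.15] above Kcnj16, a log2 ratio of 1.29 that was 2.16 with the highest transcript and 2.26 with the length-weighted mean. It lay below Kcnj13, which was 4.62-fold [4.23 to 5.06] higher, and slightly below Kcnj2, which was 1.15-fold [1.03 to 1.29] higher, although the intervals of their levels overlap. Genes of the Müller glia marker list were higher, with Rlbp1 at 432 FPKM, Slc1a3 at 79.8 FPKM and Glul at 72.6 FPKM. Which cells carried them was not tested. Aqp4, the water channel that shares the end-feet of Müller glia with Kir4.1, was at 14.6 FPKM, 3.79-fold [3.47 to 4.14] above Kcnj10. The Kcnj10 transcript was 2091 nt long and carried the name in rat and human but an unnamed identifier in mouse, and this level would miss any further Kcnj10 transcript that lacks a symbol.

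The G protein-gated Kir3 genes, whose channels open when transmitter receptors release G protein subunits, summed to 12.6 FPKM. Kcnj9 was at 5.43 FPKM [5.15 to 5.73] on 1372 fragments, Kcnj3 at 3.46 FPKM, Kcnj5 at 2.63 FPKM and Kcnj6 at 1.12 FPKM [0.877 to 1.41]. The Kcnj9 locus overlaps that of Igsf8 in the annotation. The ATP-sensitive Kir6 genes, which tie membrane potential to metabolism, were Kcnj8 (Kir6.1, vascular) at 3.36 FPKM [3.08 to 3.66] on 512 fragments and Kcnj11 (Kir6.2) at 2.33 FPKM [2.11 to 2.55] on 442 fragments. Kcnj8 was 1.44-fold [1.27 to 1.64] above Kcnj11. Their sulfonylurea receptor partners were in the same range, with Abcc9 at 3.17 FPKM and Abcc8 at 1.86 FPKM.

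Two-pore genes were all between 1.26 and 8.82 FPKM. Kcnk1 (TWIK1, a weak inward rectifying leak channel) was highest at 8.82 FPKM [8.31 to 9.36] on 1119 fragments, 1.63-fold [1.48 to 1.80] above Kcnk3. Kcnk3 (TASK1, an acid-sensitive leak channel) was at 5.40 FPKM [4.98 to 5.85] on 607 fragments. Kcnk5 (TASK2, sensitive to alkaline pH) was at 3.11 FPKM [2.88 to 3.36] on 676 fragments. These 3 genes each rested on 1 transcript, as did 52 of the 58 members.

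The lower two-pore genes lay close together, and 3 of them could not be ordered. Kcnk13 (THIK1) was at 2.65 FPKM on a transcript whose rat name was Kcnk12, so its identity is uncertain. Kcnk2 (TREK1, opened by stretch and lipids) stood at 2.14 FPKM [1.93 to 2.37] on 361 fragments, Kcnk6 at 2.03 FPKM [1.78 to 2.30] and Kcnk7 at 1.99 FPKM [1.67 to 2.34], with overlapping intervals. Kcnk4 (TRAAK, a mechanosensitive relative of TREK1) was lowest at 1.26 FPKM [1.06 to 1.49]. Kcnk1 was 4.12-fold [3.66 to 4.64] above Kcnk2.

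The calcium-activated group held 1 gene under the naming order used. Kcnn1 encodes SK1, a small-conductance channel opened by calcium bound to calmodulin, and stood at 2.52 FPKM [2.29 to 2.76] on 457 fragments of a transcript of 2792 nt. Of the 8 genes of this group in RefSeq, 7 were not measured under their own symbol: Kcnma1, Kcnn2, Kcnn3, Kcnn4, Kcnt1, Kcnt2 and Kcnu1. The auxiliary beta subunits of the BK channel were measured although its pore was not. Kcnmb4, the neuronal form that slows the channel, was at 4.72 FPKM [4.33 to 5.15] on 521 fragments. Kcnmb2, which inactivates the channel, summed to 1.82 FPKM [1.35 to 2.40] on 53 fragments over transcripts of 556 and 369 nt. It was at 1.04 FPKM with the highest transcript, 0.882 FPKM with the length-weighted mean and 0.775 FPKM without transcripts under 500 nt, so its place above 1 FPKM depended on the setting. Kcnmb1, the smooth muscle form, was at 0.847 FPKM [0.583 to 1.19].

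Accessory genes had the highest median of the groups, 5.43 FPKM. Of them, 5 of 13 lay above the median of all named genes, against 7 of 24 voltage-gated, 2 of 12 inward rectifier and 1 of 8 two-pore genes. Among these 5, Kcnab2 and Kcne4 were above 6.50 FPKM only as sums of 2 transcripts. With the highest transcript they were at 3.93 and 4.89 FPKM. KChIP proteins bind Kv4 pores and sense calcium. Kcnip4 led them at 27.2 FPKM [26.1 to 28.3] on 2334 fragments of 1 transcript. Kcnip1 was at 5.68 FPKM [5.27 to 6.11] on 718 fragments, Kcnip3 at 5.43 FPKM and Kcnip2 at 3.77 FPKM. The 4 KChIP genes summed to 42.0 FPKM [40.8 to 43.3], against 7.35 FPKM [6.98 to 7.76] for the 3 Kv4 pores. Kcnip1 was 1.88-fold [1.71 to 2.07] above Kcnd2.

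KCNE proteins cross the membrane a single time and tune several Kv pores. Kcne2, which also joins Kcnq1 in epithelia, summed to 26.2 FPKM [24.6 to 27.8] on 1104 fragments. Its 2 transcripts, of 601 and 706 nt at 14.1 and 12.1 FPKM, were named in rat and in human respectively. If they are forms of 1 mRNA the sum is right, and with the highest transcript alone the level was 14.1 FPKM. Kcnip4 and the summed Kcne2 could not be ordered, with a ratio of 1.04 [0.966 to 1.11], while Kcnip4 was 1.93-fold [1.76 to 2.12] above Kcne2 with the highest transcript. Kcne4 was at 6.56 FPKM over 2 transcripts and 4.89 FPKM with the highest, and Kcne1l, an older name of Kcne5, at 2.65 FPKM.

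Kv beta proteins are cytoplasmic partners of Kv1 pores and related to aldo-keto reductases. Kcnab1 was highest at 23.3 FPKM [22.7 to 23.9] on 5459 fragments of a transcript of 3606 nt. Kcnab2 was at 6.90 FPKM [6.52 to 7.30] on 1309 fragments over 2 transcripts, and Kcnab3 at 4.78 FPKM. Kcnab1 was 3.38-fold [3.17 to 3.59] above Kcnab2. With the highest transcript Kcnab2 was at 3.93 FPKM and the fold 5.93 [5.53 to 6.36], and with the length-weighted mean these were 3.58 FPKM and 6.51 [6.13 to 6.92]. Summed, the 3 beta genes reached 35.0 FPKM [34.2 to 35.8], against 12.1 FPKM [11.6 to 12.5] for the 3 measured Kv1 pores. Kcnab2 was 6.26-fold [5.03 to 7.79] above Kcna1, a log2 ratio of Kcna1 to Kcnab2 of -2.65 that was -1.70 with the length-weighted mean. The Kv1 sum does not hold Kcna2, Kcna3 or Kcna5, which were not measured, so neither sum is a count of partners.

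**Figure D5:**
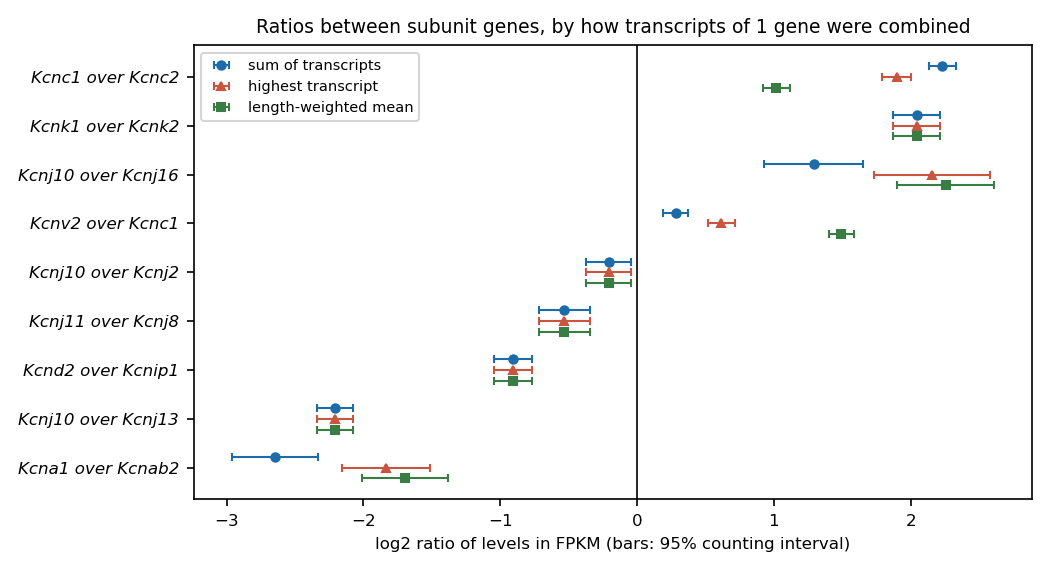
Log2 ratio of levels for 9 of the 10 measured pairs of subunit genes, with transcripts of 1 gene summed, reduced to the highest or averaged by length (bars are 95% counting intervals). The direction of each pair is the same in all 3 ways, while the ratios that involve Kcnc1, Kcnj16 and Kcnab2 shift.

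Of 27 genes outside the KCN symbols that anchor, escort or work beside potassium channels, 22 were measured and all 22 reached 1 FPKM, near the 93.2% of all named genes that did so. Their median was 5.39 FPKM, below the 6.50 FPKM of all named genes. Dag1 (dystroglycan, of the complex that anchors channels in glial end-feet) stood at 21.3 FPKM [20.8 to 21.7] and Cntnap2 (Caspr2, which gathers Kv1 channels on axons) at 19.9 FPKM [19.3 to 20.5]. Dpp6, a partner of Kv4 pores, was at 9.82 FPKM and Amigo1, a partner of Kv2 pores, at 8.83 FPKM. Lrrc26, which shifts BK channel gating, was at 4.94 FPKM.

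Coverage of the family differed between groups. RefSeq lists 94 KCN genes for the species, of which 57 were measured under that symbol. This held for 24 of 40 voltage-gated, 12 of 15 inward rectifier, 8 of 14 two-pore, 1 of 8 calcium-activated and 12 of 17 accessory genes. Kcne5 counts there as not measured although its older name Kcne1l is a member, and Kcnn2 and Kcnt1 although transcripts carry their human names. The sums of the groups therefore cover unequal shares of their genes. Of the 58 members, 22 carried their symbol in the names of 3 species, 25 in 2 and 11 in 1. For 11 members the fragment count was fractional, so part of their fragments was divided with another transcript. RefSeq places 10 pairs of KCN genes side by side, and both genes were measured in 4 of them. Kcnj9 and Kcnj10 stood at 5.43 and 3.84 FPKM, Kcnj2 and Kcnj16 at 4.43 and 1.57 FPKM, and Kcna1 and Kcna6 at 1.10 and 8.70 FPKM. The loci of the remaining pair, Kcnip1 and Kcnmb1, overlap, at 5.68 and 0.847 FPKM. In all, 17 members overlap another annotated gene, and 5 of them a protein-coding one (Kcnab2 with Nphp4, Kcnj9, Kcnj13, Kcnip1 and Kcnmb1). Among the highest genes, Kcnab1 overlaps a long non-coding RNA and Kcnip4 overlaps pseudogenes.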

How the data were processed

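RNA of Nile rat eyes was sequenced, and the labels' protocols state that RNA of 5 rats was pooled. Bowtie was used per the submitters' processing notes; no source used here gives its version, the assembly or the strand setting. The table deposited by the authors gives, per the file headers, FPKM, estimated fragment counts (expected counts that need not be whole) and transcript length for 124439 transcripts, with 64967222 mapped fragments. The deposited FPKM of the members equals fragments divided by length and by that total.

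Transcripts were named from the deposited ortholog table by the first symbol that was no Ensembl or GenBank identifier, and FPKM were summed per gene. The human name KCNA3B was read as Kcnab3 in the alternatives. Levels carry 95% gamma (Fay-Feuer) Poisson intervals and ratios 95% delta-method intervals. These cover counting error only: no variation between animals, PCR copies or divided fragments. The interval code was tested on simulated data. With 1 pooled column no test between samples, replicate omission or p-value was possible. The single values of some members, partner genes and 1 pair are not given, although all are part of the group counts, medians and sums. The other measured members are named; the 3 highest of each group, the 13 pairs and the 27 partner genes follow lists, and 3 pairs had an unmeasured gene. The members and lists were chosen with earlier results of these data known. The ratios of Kcnj14, Kcnk1 to Kcnk3, Kcnip4 to Kcne2, Kcnab1 to Kcnab2 and Aqp4 to Kcnj10 were chosen after their values were seen. A planned search of protein sequences for the pore signature was not run. The alternatives were other ways to combine, filter, name and group transcripts. Computations ran in Python 3.11.15 with SciPy 1.17.1, pandas 2.3.3 and NumPy 2.4.6, and plots in Matplotlib 3.10.9.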

Additional observations from a re-analysis of the deposited data

Results flagged for a closer look

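A pair of transcripts outside the members carried a KCN name in the human column, and both lay above the level that a count of 0 allows. The transcript named SK2 in mouse and KCNN2 in human, a small-conductance calcium-activated channel, stood at 1.91 FPKM [1.74 to 2.10] on 433 fragments and 3486 nt. The transcript named mKIAA1422 in mouse and KCNT1 in human, the sodium-activated Slack channel, stood at 1.75 FPKM [1.52 to 2.01] on 202 fragments and 1776 nt. The naming order leaves them out because the mouse name comes first. With both counted, the calcium-activated group held Kcnn1, Kcnn2 and Kcnt1 at a summed 6.18 FPKM. Kcnt1 is in that sum as a relative by symbol, not as a channel opened by calcium. A sum with Kcnn2 and without Kcnt1 was not computed.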

How the results depend on the processing

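No ratio between groups changed direction in any alternative, and no ratio within a pair did so where it was computed. Pair ratios were not computed with fragments in place of FPKM, with accessory genes added, or with chosen genes left out. With names given by at least 2 species they covered only some pairs. The 3 highest genes of each group with at least 3 members, compared in the same settings as the pairs, were the same except in 3 cases. With the length-weighted mean Kcnc1 left the 3 highest voltage-gated genes, and with names given by at least 2 species Kcnv2 and Kcne2 left the 3 highest of their groups. Ratios below are log2, in the order voltage-gated (V), inward rectifier (I), two-pore (T) and calcium-activated (C). With the highest transcript, V summed to 147 and the accessory genes to 102 FPKM. With the length-weighted mean these were 141 and 99.5 FPKM, V over I was 0.21 and V over T 2.37. With the human symbol first, or with a KCN name in any species, C summed to 6.18 FPKM, and V, I and T over C were 4.61, 4.32 and 2.15. With transcripts left out where the symbols of the species differed, T summed to 24.8 FPKM, V and I over T were 2.61 and 2.31 and T over C 3.30. A symbol given by 1 species alone was kept in that setting. With fragments in place of FPKM, V over I, T and C was 0.41, 3.18 and 6.18, I over T and C 2.77 and 5.77, and T over C 3.00. With accessory genes added to their groups, V summed to 263 and C to 9.91 FPKM, V over I, T and C was 1.10, 3.26 and 4.73, and I and T over C were 3.64 and 1.47. Without the highest gene of each group, V, I, T and the accessory genes summed to 111, 50.2, 18.6 and 92.6 FPKM, V over I and T was 1.15 and 2.58, I over T was 1.43, and C had no gene left. Without Kcnj14, I summed to 50.2 FPKM, V over I was 1.59, and I over T and C 0.87 and 4.32. With names given by at least 2 species, V, I and the accessory genes summed to 116, 112 and 73.0 FPKM, V over I, T and C was 0.042, 2.08 and 5.52, and I over T 2.04. The last 2 settings, and the KCN name in any species, were chosen after the data were seen. At FPKM 5 in place of 1, 21 members were detected. Leaving out Kcnt and Kcnu changed nothing, since none was measured under the main names. No paired analysis was possible because the series has 1 group and 1 column of values. Depth limits Kcnh8, Kcnmb1, Kcnd1, Kcnmb2, Kcnq3, Kcnj16 and Kcnj6, whose intervals are wide.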
